A study of Mus musculus with 6 samples.

Results

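The D cyclins Ccnd1, Ccnd2 and Ccnd3, the kinases Cdk4 and Cdk6, the CDK inhibitors Cdkn1a, Cdkn1b, Cdkn2c and Cdkn2d, and Rb1 make up the core of the switch by which a resting cell enters the cycle. These 10 genes were taken by name, and 9 of them were found among the 22969 gene identifiers with counts. Cdk4 was not analysed here. RNA was sequenced from hematopoietic stem cells sorted from the bone marrow of adult C57BL/6 mice (age in weeks not given here), which lack lineage markers, carry Sca-1, c-Kit and CD150 and lack CD48. There were 3 libraries from mice with floxed Rbfox2 alleles and Vav1-Cre (called Rbfox2-deleted), a Cre that acts across blood cells and not in stem cells alone, and 3 libraries from control mice with the same floxed alleles and no Cre. Each library came from about 500 sorted cells. Rbfox2 encodes an RNA-binding regulator of splicing, and the comparison asks whether the genes that govern entry into the cycle differ in RNA level.

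In G1, D cyclins bind and activate CDK4 and CDK6, which phosphorylate the retinoblastoma protein RB1 and so release E2F transcription factors, which in turn drive the genes of S phase. Inhibitors of the INK4 class, to which Cdkn2c (p18) and Cdkn2d (p19) belong, block CDK4 and CDK6 directly, while Cdkn1a (p21) and Cdkn1b (p27) of the CIP/KIP class bind cyclin-CDK complexes more broadly. In blood stem cells, which are mostly quiescent, low CDK6 and active inhibitors are known to hold cells out of the cycle.

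Rbfox2-deleted libraries 1, 2 and 3 held 23474895, 35650284 and 33345370 counts, and control libraries 1, 2 and 3 held 47895459, 51643037 and 55151484. Controls 1 and 3 were nearly identical (chi-square per degree of freedom 3.44, with 156 to 808 between any other libraries). They entered as 1 sample, and every test set 3 Rbfox2-deleted samples against 2 control samples. The labels number replicates and do not say that each came from a separate mouse or sort, so p-values measure only the spread between these 5 samples, which may be technical. Rbfox2 itself had 2, 87 and 10 counts in Rbfox2-deleted libraries 1, 2 and 3, against 238, 11 and 250 in controls 1, 2 and 3. Rbfox2-deleted 2 had more Rbfox2 counts than control 2, against the direction of the labels. The counts cover all exons of the gene and the labels do not name the floxed exon. The counts therefore cannot show whether that exon was deleted in a library, and each direction below rests on the labels. Xist and Y-linked genes marked 2 Rbfox2-deleted libraries (1 and 3) as female and 1 Rbfox2-deleted and all 3 control libraries as male. Rbfox2-deleted 1 lacked many genes: of 1336 genes with between 5 and 10 CPM as their lowest value in the other libraries, 12% had 0 counts in it, whereas the same measure was at most 0.228% for any other library. Of the sorting markers, Kit, Ly6a and Slamf1 were present in every library and Cd48 had at most 3 counts. Ly6a, which encodes Sca-1, had 330, 336 and 423 CPM in Rbfox2-deleted libraries 1, 2 and 3, against 632, 815 and 665 CPM in controls 1, 2 and 3, with no overlap (log2 fold change -1.10, SE 0.251, edgeR adjusted p = 0.387). Cd48 and 8 defining markers of other lineages had at most 5 counts in any library. Summed levels of the 6 megakaryocyte markers ranged from 44.1 to 277 CPM in Rbfox2-deleted libraries and from 295 to 307 CPM in control libraries, with Pf4, Ppbp and Gp1bb at 0 in Rbfox2-deleted 1, and those of the 7 erythroid markers from 128 to 470 CPM in Rbfox2-deleted libraries and from 120 to 169 CPM in controls. Summed progenitor markers were 458 to 695 CPM in Rbfox2-deleted libraries and 543 to 916 CPM in controls. DESeq2 called 1 of these 9 markers lower (1.7% of all genes were called lower). Of the 4 markers tested by edgeR, 2 had fold changes above 0 and 2 below. Summed markers of B cells were 138 to 192 CPM in Rbfox2-deleted libraries and 211 to 326 CPM in controls, and those of granulocytes and monocytes were 1320 to 1521 CPM in Rbfox2-deleted libraries and 1476 to 2105 CPM in controls. Those of T and NK cells were 106 to 168 CPM in Rbfox2-deleted libraries and 86.5 to 110 CPM in controls, and those of stroma and endothelium 94.1 to 183 CPM in Rbfox2-deleted libraries and 53.6 to 116 CPM in controls. Single genes carried most of several of these sums, namely Prtn3 for progenitors, Cd79b for B cells, Lyz2 for granulocytes and monocytes, and Emcn for stroma and endothelium. Nkg7 and Klrb1c carried most of the T and NK cell sum. Emcn alone gave 92.4 to 182 CPM in Rbfox2-deleted libraries and 53.4 to 115 CPM in controls. The part of other cell types in the values below was not tested.

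On mm10 all 9 genes are protein coding and their counts cover exons. Ccnd1 (ENSMUSG00000070348) lies at chr7:144929931-144939925, Ccnd2 (ENSMUSG00000000184) at chr6:127125162-127152193 and Ccnd3 (ENSMUSG00000034165) at chr17:47505051-47599691. Cdk6 (ENSMUSG00000040274) lies at chr5:3341485-3531008 and Rb1 (ENSMUSG00000022105) at chr14:73183673-73325822. Cdkn1a (ENSMUSG00000023067) lies at chr17:29090976-29100727, Cdkn1b (ENSMUSG00000003031) at chr6:134920401-134925513, Cdkn2c (ENSMUSG00000028551) at chr4:109660876-109667189 and Cdkn2d (ENSMUSG00000096472) at chr9:21288410-21291407. Libraries of this kind keep no strand, and exons of several members overlap a gene on the opposite strand, by 1100 bases for Ccnd1 and LTO1 and by 361 bases for Ccnd3 and Bysl, so reads from those stretches cannot be assigned to one of the pair.

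Rbfox proteins bind the 6-base element TGCATG, also in 3′ UTRs, so the 3′ UTRs of the members were searched for it on the transcript strand. Of the 9 members, 5 held it, with 7 copies in all, against 33.9% of 11784 tested genes with an annotated 3′ UTR. Per 1000 bases the members held 0.265 copies and all those genes 0.354. The 7 copies are shown because they are the only places in these transcripts' 3′ UTRs where the element occurs (GENCODE M21, mm10, longest coding transcript, capitals mark the element, 12 bases on each side):
Ccnd1, chr7:144930396-144930425, minus strand: agcggcctgttgTGCATGccaccatgctgc
Ccnd2 site nearer the stop codon, chr6:127127944-127127973, minus strand: gtcagcctgattTGCATGcgtgcaccaggg
Ccnd2 site farther from it, chr6:127126586-127126615, minus strand: ctagctttaaggTGCATGcctactgacacg
Ccnd3, chr17:47598934-47598963, plus strand: gcactaaggggtTGCATGgtcatgaggggc
Cdk6 site nearer the stop codon, chr5:3521183-3521212, plus strand: tgtgagtgtgtgTGCATGcgtatgtgtgtg
Cdk6 site farther from it, chr5:3522600-3522629, plus strand: gtagctgaacaaTGCATGtggttatttgtt
Rb1, chr14:73195749-73195778, minus strand: ttcattaagtttTGCATGatcatcacacag
The 3′ UTRs of Cdkn1a (1334 bases), Cdkn1b (3439 bases), Cdkn2c (373 bases), Cdkn2d (563 bases) and, from its annotation, Cdk4 (899 bases) held none. The 3′ UTRs with the element ranged from 907 bases in Ccnd3 to 10217 bases in Cdk6, and the median over tested genes was 1061 bases. These matches describe the windows searched and say nothing of binding.

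None of the 9 members passed the test across all genes. edgeR's quasi-likelihood test with Benjamini-Hochberg adjustment called 0 of 12350 genes (0%), with 1221 at an unadjusted p under 0.05 (9.89%), DESeq2 called 477 of 14137 (3.37%, of which 1.67% higher and 1.7% lower) and limma-voom 0 of 12350. Adjusted p values of the members ran from 0.458 for Ccnd3 to 0.987 for Cdkn2c by edgeR, and DESeq2 called none of them either. Log2 fold changes (Rbfox2-deleted minus control) were above 0 for 1 of the 9 members and below 0 for 8, while 53.5% of all genes tested were above 0 and 46.5% below, and the member median was -0.40, against 0.11 for all genes tested. Rbfox2-deleted libraries lay wholly above control for 1 member, Ccnd3 (15.8% of all genes tested did so), and wholly below for 3, Ccnd1, Cdkn1a and Cdkn2d (15.4% of all genes tested). At an unadjusted p under 0.05 Ccnd3 was higher (5.33% of all genes tested were) and no member was lower (4.56%). With upper quartile scaling Ccnd3 was no longer under that threshold, while Ccnd2 and Cdkn2d were under it and lower. Ccnd2 and Cdkn2d then had log2 fold changes of -0.70 and -0.75 (edgeR adjusted p = 0.367 and 0.280). Under that scaling 1087 of 12350 genes tested were lower at that threshold and 339 higher. Ccnd3 was also above it with DESeq2 (unadjusted p = 0.0896) and without a filter on low counts (edgeR unadjusted p = 0.0634). It stayed under it with a stricter filter (edgeR unadjusted p = 0.0456) and with limma-voom (unadjusted p = 0.0237). limma-voom put 13.7% of all genes tested at an unadjusted p under 0.05. All 9 members passed the filter on low counts, Rb1 only through libraries in which it had 46 or more counts.

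**Figure D1:**
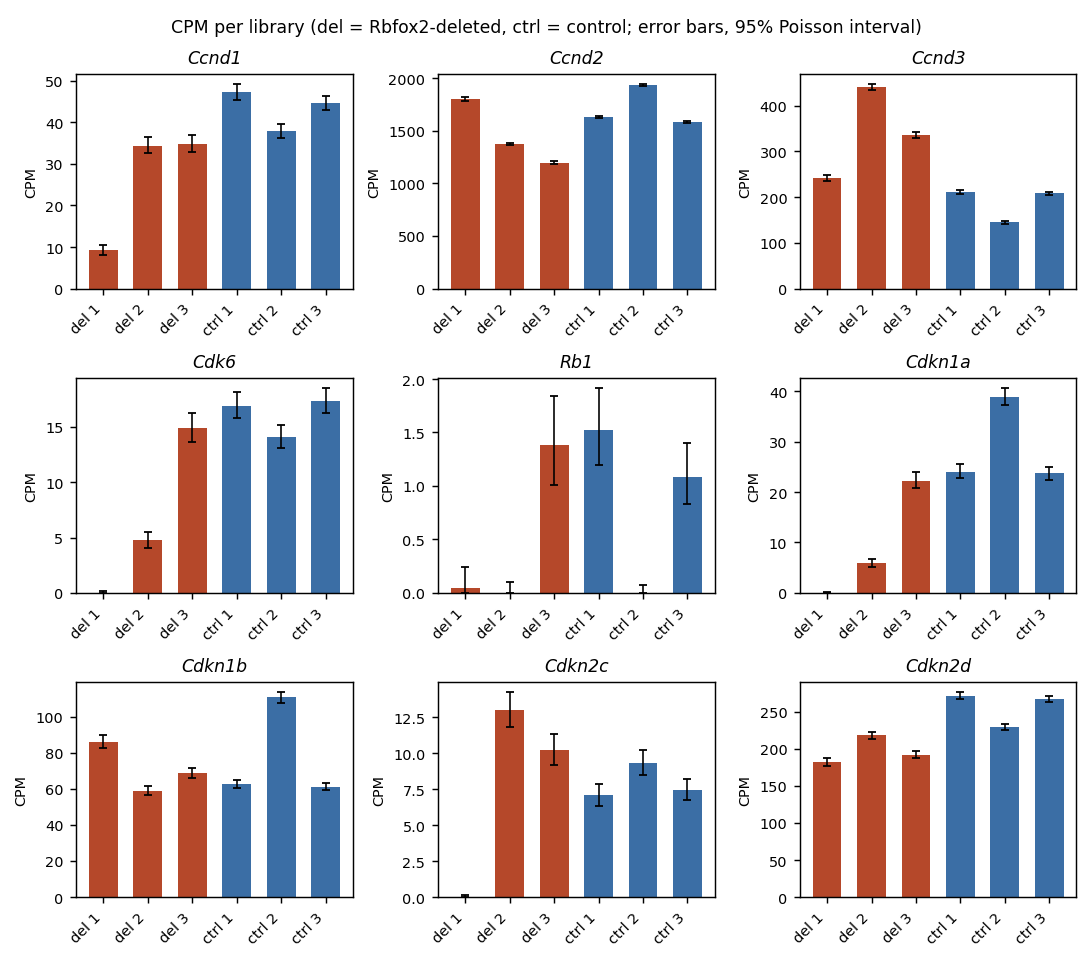
Level of each member in CPM (counts relative to the library total) by library, with Rbfox2-deleted libraries left of controls and 95% Poisson intervals, which cover counting error only. Ccnd3 lay between 241 and 441 CPM in Rbfox2-deleted libraries and between 145 and 211 CPM in controls, and Cdk6, Cdkn1a and Cdkn2c were at 0 in Rbfox2-deleted 1.

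Ccnd3 had the smallest p of the members. Its protein, cyclin D3, is known for its part in the expansion of lymphoid and erythroid precursors. Ccnd3 had 241, 441 and 335 CPM in Rbfox2-deleted libraries 1, 2 and 3, against 211, 145 and 208 CPM in controls 1, 2 and 3. All 3 Rbfox2-deleted libraries lay above all controls, with Rbfox2-deleted 1 nearest to them. The means were 339 ± 99.6 CPM in Rbfox2-deleted samples (SD, n = 3) and 177 ± 45.6 CPM in control samples (SD, n = 2). This gave a log2 fold change of 0.85 (SE 0.307, edgeR adjusted p = 0.458), rank 826 of 12350 genes by p. With upper quartile scaling, which moved the median of all genes to -0.20, the fold change was 0.53 and the groups overlapped. Bysl, the ribosome assembly factor gene that shares exon sequence with Ccnd3 on the other strand, had 32.1, 32.3 and 29.0 CPM in Rbfox2-deleted libraries 1, 2 and 3, against 8.18, 8.37 and 8.47 CPM in controls 1, 2 and 3. Its part in the counts of Ccnd3 was not tested.

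Ccnd2 had the highest CPM of the members and the highest mean level per length, and its groups overlapped. It encodes the D cyclin that signals from growth factor receptors induce in blood progenitors. Ccnd2 had 1802, 1375 and 1198 CPM in Rbfox2-deleted libraries 1, 2 and 3, against 1631, 1934 and 1581 CPM in controls 1, 2 and 3. Rbfox2-deleted 2 and 3 lay below every control, while Rbfox2-deleted 1 lay among them. The means were 1458 ± 310 CPM in Rbfox2-deleted samples (SD, n = 3) and 1769 ± 233 CPM in control samples (SD, n = 2), a log2 fold change of -0.31 (SE 0.359, edgeR adjusted p = 0.904). The direction turned to 0.02 with a correction for transcript length.

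Ccnd1 was the scarcest D cyclin. Its protein links mitogen signals to CDK4 and CDK6 in many tissues. Ccnd1 had 9.24, 34.4 and 34.8 CPM in Rbfox2-deleted libraries 1, 2 and 3, against 47.3, 37.9 and 44.6 CPM in controls 1, 2 and 3. Every Rbfox2-deleted library lay below every control, 2 of them close to control 2 and Rbfox2-deleted 1 far below. This gave a log2 fold change of -0.83 (SE 0.715, edgeR adjusted p = 0.849) and of -0.50 without Rbfox2-deleted 1. LTO1, which overlaps Ccnd1 on the other strand, had 9.16, 35.6 and 91.7 CPM in Rbfox2-deleted libraries 1, 2 and 3, against 22.8, 32.2 and 22.9 CPM in controls 1, 2 and 3, and its part in the counts of Ccnd1 was not tested.

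Levels of different genes are comparable only per length, here as CPM per kilobase of the longest annotated transcript. The summed level of the 3 D cyclins was 325 ± 34.8 CPM per kilobase in Rbfox2-deleted samples (SD, n = 3) and 337 ± 23.5 CPM per kilobase in control samples (SD, n = 2), a difference smaller than the spread within either group. Within that sum Ccnd3 made up 17.9%, 33.5% and 30.4% in Rbfox2-deleted libraries 1, 2 and 3, against 16.8%, 10.6% and 17.1% in controls 1, 2 and 3. Ccnd2 made up 81.4%, 63.8% and 66.3% in Rbfox2-deleted libraries 1, 2 and 3, against 79.3%, 86.5% and 79.1% in controls 1, 2 and 3. Rbfox2-deleted 2 and 3 had a larger Ccnd3 share than any control, and Rbfox2-deleted 1 lay close to controls 1 and 3. The longest Ccnd3 transcript, of 3858 bases, keeps an intron. With the longest coding transcript of 2113 bases its shares were 28.5%, 47.9% and 44.4% in Rbfox2-deleted libraries 1, 2 and 3 and 27.0%, 17.8% and 27.3% in controls 1, 2 and 3.

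**Figure D2:**
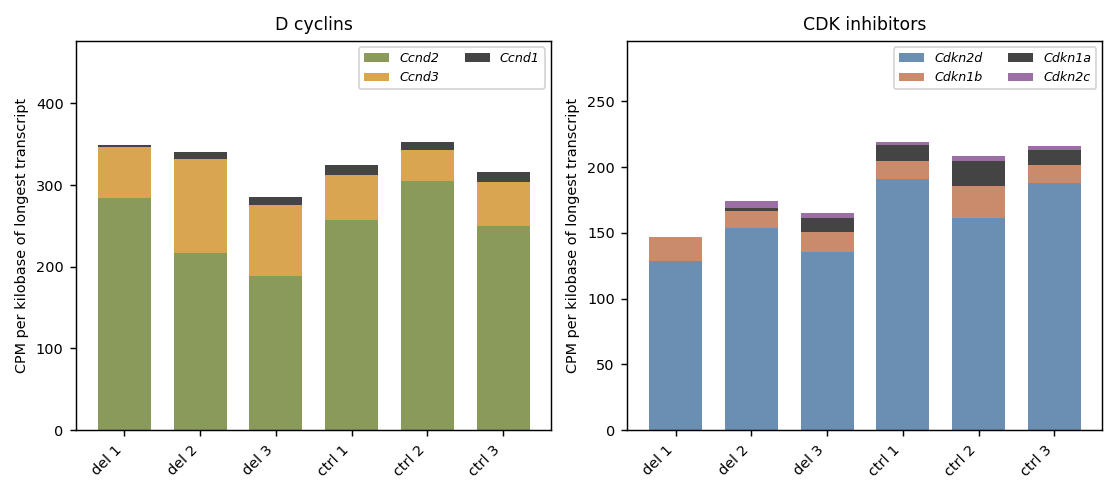
Summed level of the D cyclins and of the 4 CDK inhibitors by library, in CPM per kilobase of each gene's longest transcript, stacked by gene, with Rbfox2-deleted libraries left of controls. The D cyclin sums lay between 285 and 350 in Rbfox2-deleted libraries and between 316 and 353 in controls. The sums of these 4 inhibitors, which leave out Cdkn1c, lay between 147 and 175 in Rbfox2-deleted libraries and between 208 and 219 in controls.

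Cdk6, the D cyclin-dependent kinase whose level is known to set how fast blood stem cells leave quiescence, was low or undetected in 2 of the 3 Rbfox2-deleted libraries. It had 0, 170 and 496 counts in Rbfox2-deleted libraries 1, 2 and 3, or 0, 4.77 and 14.9 CPM, against 16.9, 14.1 and 17.4 CPM in controls 1, 2 and 3. Rbfox2-deleted 3 lay within the range of the controls, and below it, at 12.8 against 15.2 for control 2, once CPM were scaled by TMM. By counting error alone, a count of 0 in Rbfox2-deleted 1 allows up to 0.128 CPM (3 counts in that library). That limit is 122-fold lower than the control mean, and it does not cover transcripts lost before sequencing. The fitted log2 fold change, which depends on how a count of 0 is treated, was -1.49 (SE 1.96, edgeR adjusted p = 0.918). Leaving out Rbfox2-deleted 3 made it -2.87, and leaving out Rbfox2-deleted 1 made it -0.93. In bulk RNA such a value cannot tell fewer cells with the transcript from less transcript per cell.

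Rb1, the retinoblastoma gene itself, had the lowest level of the members, and libraries of the same group disagreed. It had 1, 0 and 46 counts in Rbfox2-deleted libraries 1, 2 and 3, against 73, 0 and 60 counts in controls 1, 2 and 3. Rbfox2-deleted 1 and 2 and control 2 had at most 1 count, and the other libraries had 46 or more. Its log2 fold change of -0.63 (SE 2.64, edgeR adjusted p = 0.979) turned to 6.92 without controls 1 and 3, which leaves control 2 at 0 counts. Exons of Rb1 overlap Rcbtb2 by 488 bases and Lpar6 by 408 bases, both on the other strand. Rcbtb2 ran from 33.3 CPM in control 2 to 100 CPM in Rbfox2-deleted 3. Lpar6 ran from 33.6 CPM in control 2 to 143 CPM in Rbfox2-deleted 2. The part of either gene in the counts of Rb1 was not tested.

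Of the CIP/KIP inhibitors, Cdkn1a had lower values in every Rbfox2-deleted library, while Cdkn1b overlapped. Cdkn1a, a p53 target known to restrain stem cell cycling, had 0, 5.83 and 22.3 CPM in Rbfox2-deleted libraries 1, 2 and 3, against 24.1, 38.9 and 23.7 CPM in controls 1, 2 and 3. Rbfox2-deleted 3 reached almost the level of controls 1 and 3. Rbfox2-deleted 1 was at least 246-fold below the control mean by its limit of 0.128 CPM, which covers counting error only. The means were 9.37 ± 11.6 CPM in Rbfox2-deleted samples (SD, n = 3) and 31.4 ± 10.6 CPM in control samples (SD, n = 2), and the log2 fold change of -2.00 had an SE of 1.94 (edgeR adjusted p = 0.876). Leaving out Rbfox2-deleted 3 made it -3.60, and leaving out Rbfox2-deleted 1 made it -1.44. Trp53, which encodes p53, had 381, 424 and 497 CPM in Rbfox2-deleted libraries 1, 2 and 3, against 360, 224 and 360 CPM in controls 1, 2 and 3, with a log2 fold change of 0.50 (SE 0.272, edgeR adjusted p = 0.652). All Rbfox2-deleted libraries lay above all controls, and Trp53 is named here after its values were seen.

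Cdkn1b, the p27 inhibitor of resting cells, had 86.2, 58.9 and 68.6 CPM in Rbfox2-deleted libraries 1, 2 and 3, against 62.7, 111 and 61.2 CPM in controls 1, 2 and 3. Only control 2 stood above the range of the Rbfox2-deleted libraries. Its log2 fold change of -0.33 (SE 0.506, edgeR adjusted p = 0.940) became 0.23 without control 2, so 1 control library sets its sign. The remaining CIP/KIP inhibitor, the imprinted Cdkn1c (p57), named here after its values were seen, had 280, 389 and 259 CPM in Rbfox2-deleted libraries 1, 2 and 3, against 225, 245 and 220 CPM in controls 1, 2 and 3 (log2 fold change 0.33, SE 0.308, edgeR adjusted p = 0.863). Its groups did not overlap by CPM and overlapped once scaled by TMM.

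Among the inhibitors that are members, a set without Cdkn1c, Cdkn2d carried most of the RNA. This INK4 gene had 182, 218 and 192 CPM in Rbfox2-deleted libraries 1, 2 and 3, against 272, 230 and 268 CPM in controls 1, 2 and 3. All Rbfox2-deleted libraries lay below all controls, Rbfox2-deleted 2 just below control 2. The means were 198 ± 18.6 CPM in Rbfox2-deleted samples (SD, n = 3) and 250 ± 28.1 CPM in control samples (SD, n = 2), with a log2 fold change of -0.40 (SE 0.266, edgeR adjusted p = 0.745). Its SE was the smallest of the 9 members, and the fold change stayed between -0.50 and -0.31 when single samples were left out, and it was -0.75 with upper quartile scaling.

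Cdkn2c, the INK4 gene known for its part in stem cell self-renewal in mice, had 0, 464 and 341 counts in Rbfox2-deleted libraries 1, 2 and 3, or 0, 13.0 and 10.2 CPM, against 7.08, 9.33 and 7.45 CPM in controls 1, 2 and 3. Rbfox2-deleted 2 and 3 lay above every control. By the limit of 3 counts, which covers counting error only, Rbfox2-deleted 1 was at least 65-fold below the control mean. The fitted log2 fold change of -0.31 (SE 2.01, edgeR adjusted p = 0.987) became 0.26 without Rbfox2-deleted 1 and 0.48 with sex as a covariate. Cdk6 and Cdkn1a were also at 0 in Rbfox2-deleted 1. That library had 0 counts for 12% of genes whose lowest value elsewhere was 5 to 10 CPM, as for Cdkn2c and Cdkn1a, and for 16.2% of those at 1 to 5 CPM, as for Cdk6. The part of lost transcripts in these 3 values was not tested.

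Per kilobase, the 4 inhibitors among the members summed to 162 ± 13.9 CPM in Rbfox2-deleted samples (SD, n = 3) and 213 ± 6.50 CPM in control samples (SD, n = 2). The sums of the groups did not overlap (15.4% of single genes tested lay wholly below control). Cdkn2d made up 87.1%, 88.0% and 81.9% of these sums in Rbfox2-deleted libraries 1, 2 and 3, against 87.1%, 77.5% and 87.1% in controls 1, 2 and 3. The sums leave out Cdkn1c, so they do not give the level of all CDK inhibitors. Cdkn1c went the other way, at 147, 205 and 136 CPM per kilobase in Rbfox2-deleted libraries 1, 2 and 3, against 118, 129 and 116 in controls 1, 2 and 3. Over all 9 members and 5 samples the order of mean levels per kilobase was Ccnd2 (250.0 CPM per kilobase), Cdkn2d (154), Ccnd3 (71.1), Cdkn1b (17.0), Cdkn1a (8.74), Ccnd1 (8.68), Cdkn2c (3.23), Cdk6 (0.884) and Rb1 (0.117). Ranges over samples did not meet between Ccnd3 (37.5 to 114) and either neighbour, Cdkn2d (128 to 190) or Cdkn1b (12.9 to 24.3), but with the longest coding transcript Ccnd3 ran from 68.6 to 209 and overlapped Cdkn2d. Those of Cdkn1a (0 to 18.7) and Ccnd1 (2.47 to 12.3) overlapped so far that their order is not set. The ranges of Ccnd2 (189 to 306) and Cdkn2d (128 to 190) met at their ends. With merged exon lengths Ccnd2 ran from 127 to 206 and Cdkn2d from 116 to 171, so these ranges overlapped.

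**Figure D3:**
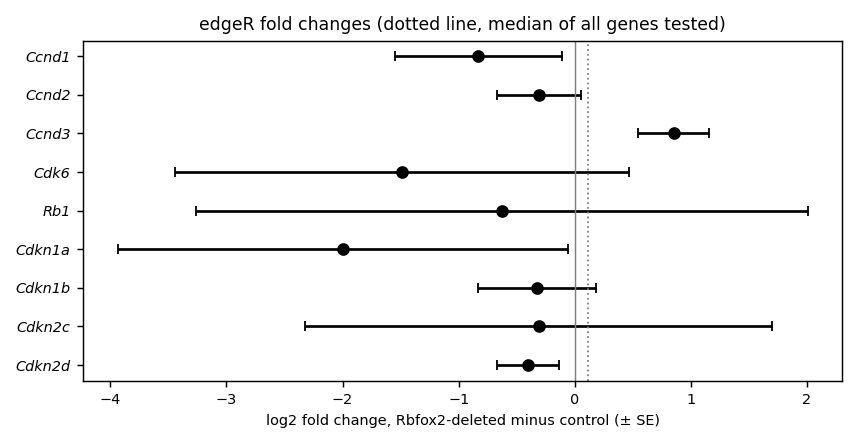
Log2 fold change of each member by edgeR, Rbfox2-deleted minus control, with its SE. The dotted line marks the median of all genes tested, 0.11, and only Ccnd3 at 0.85 lies above 0, while the SE of Cdk6, Cdkn1a, Cdkn2c and Rb1 runs from 1.94 to 2.64.

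The genes whose pattern over the 5 samples came closest to Ccnd3 were the annexin Anxa1, Poldip2 and the alpha tubulin Tuba1a, at Euclidean distances of 0.128, 0.144 and 0.181 between log2 CPM values centred on their means. Anxa1 had 368, 640 and 468 CPM in Rbfox2-deleted libraries 1, 2 and 3, against 283, 208 and 284 CPM in controls 1, 2 and 3. Among the members, Cdk6 and Cdkn1a were closest to each other (distance 1.10), as were Ccnd2 and Cdkn1b (distance 0.505). These distances over 5 samples are given as a description.

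None of the wider G1 machinery passed the edgeR threshold. Of 27 other G1 regulators 24 were tested, of which 18 had fold changes above 0 and 6 below, with a median of 0.44 on the log2 scale and 0 called by edgeR or DESeq2. Over all genes tested 53.5% were above 0. At an unadjusted p under 0.05 there was 1 higher, Gsk3b (5.33% of all genes tested were higher), and 1 lower, Cks1b (4.56%). Gsk3b, a kinase that marks cyclin D1 for degradation, had 348.5, 179 and 193 CPM in Rbfox2-deleted libraries 1, 2 and 3, against 77.3, 74.9 and 81.9 CPM in controls 1, 2 and 3. The groups did not overlap, with Rbfox2-deleted 1 highest (log2 fold change 1.64, SE 0.508, edgeR adjusted p = 0.395, and 1.04 without Rbfox2-deleted 1). Fbxo31, an F-box protein that also targets cyclin D1, had 87.9, 48.1 and 56.9 CPM in Rbfox2-deleted libraries 1, 2 and 3, against 20.3, 26.1 and 18.4 CPM in controls 1, 2 and 3. Here too the groups did not overlap (log2 fold change 1.48, SE 0.639, edgeR adjusted p = 0.528, and 0.97 without Rbfox2-deleted 1).

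Cks1b, the CDK subunit that helps degrade p27, lay below control in every Rbfox2-deleted library, at 68.8, 213 and 173 CPM in Rbfox2-deleted libraries 1, 2 and 3 against 260, 302 and 263 CPM in controls 1, 2 and 3. Cks1b had a log2 fold change of -1.04 (SE 0.410, edgeR adjusted p = 0.487). The INK4 genes Cdkn2a and Cdkn2b had at most 2 counts in any library and were not tested.

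Of 10 E2F and DP genes, which encode the factors that RB1 and its relatives hold back, 6 had fold changes above 0 and 4 below, with a median of 0.35 and 0 called. E2f4, a mainly repressive E2F of resting cells, had 50.1, 129 and 126 CPM in Rbfox2-deleted libraries 1, 2 and 3, against 35.2, 28.5 and 31.4 CPM in controls 1, 2 and 3 (log2 fold change 1.59, SE 0.502, edgeR adjusted p = 0.403). The repressor E2f6 followed at 13.8, 33.4 and 35.5 CPM in Rbfox2-deleted libraries 1, 2 and 3, against 8.77, 12.2 and 9.17 CPM in controls 1, 2 and 3. Both genes lay above control in every Rbfox2-deleted library, and Rbfox2-deleted 1 was the nearest to control. E2f2, an activating E2F, had 1, 0 and 17 counts in Rbfox2-deleted libraries 1, 2 and 3, against 40, 98 and 22 counts in controls 1, 2 and 3.

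Of 24 E2F target genes of S phase entry 15 had fold changes above 0 and 9 below, with a median of 0.26 and 0 called by edgeR. DESeq2 called 1, Slbp, as higher (1.67% of all genes were called higher). Slbp, which binds histone mRNA, had 232, 350 and 307 CPM in Rbfox2-deleted libraries 1, 2 and 3, against 104, 88.0 and 102 CPM in controls 1, 2 and 3, with a log2 fold change of 1.55 (SE 0.277, edgeR adjusted p = 0.387, DESeq2 adjusted p = 0.00598). The helicase subunit Mcm7 had 38.1, 143 and 144 CPM in Rbfox2-deleted libraries 1, 2 and 3, against 44.1, 33.9 and 44.3 CPM in controls 1, 2 and 3, so Rbfox2-deleted 1 lay among the controls. Mki67, a marker of cycling cells, had 1, 42 and 2 counts in Rbfox2-deleted libraries 1, 2 and 3, against 350, 462 and 430 counts in controls 1, 2 and 3. No Rbfox2-deleted library came near a control (log2 fold change -4.41, SE 1.88, edgeR adjusted p = 0.528, and -7.34 without Rbfox2-deleted 2).

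**Figure D4:**
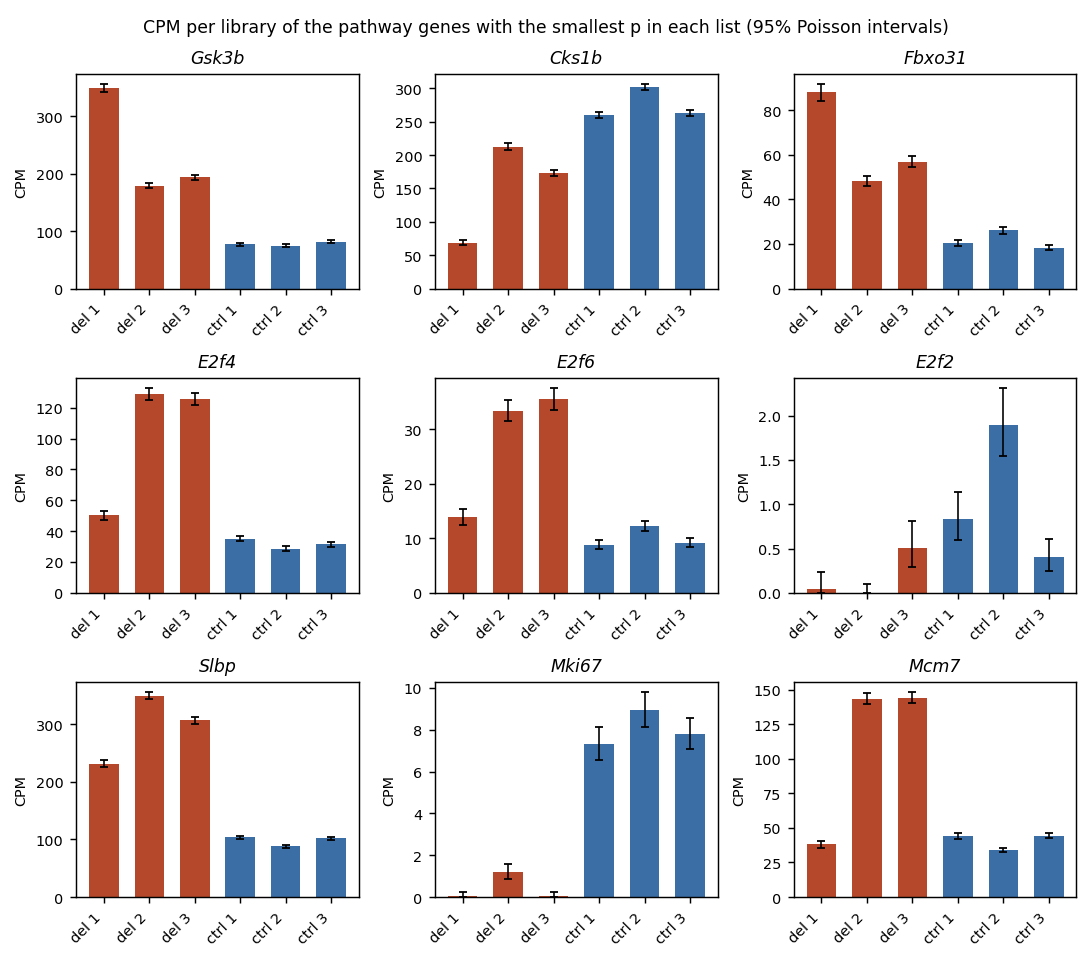
Level in CPM by library of the 3 genes with the smallest p in each of the 3 lists of other G1 regulators, E2F factors and E2F targets, with Rbfox2-deleted libraries left of controls and 95% Poisson intervals. Gsk3b, Fbxo31, E2f4, E2f6 and Slbp were higher in every Rbfox2-deleted library than in any control, and Cks1b and Mki67 were lower in each. E2f2 had 0.510 CPM in Rbfox2-deleted 3 and 0.399 CPM in control 3, and Mcm7 was higher in Rbfox2-deleted 2 and 3 only. These genes were picked by p, so their separation is no result about the lists. With controls 1 and 3 as 1 sample, 5 of 24 other G1 regulators tested, 2 of 10 E2F and DP genes and 2 of 24 E2F targets lay wholly higher. In the same order 2, 1 and 2 lay wholly lower. Over all genes tested 15.8% lay wholly higher and 15.4% wholly lower.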

How the data were processed

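Counts of reads per gene were used as the authors deposited them, without normalization. The authors used Trimmomatic 0.39, featureCounts, DESeq2 1.36.0 and build mm10, according to the submitters' processing notes. Per the labels' protocols libraries were made by Smart-seq2, which amplifies polyadenylated RNA by PCR without molecular identifiers, so Poisson intervals (95%) and the limit of 3 counts cover counting error only. No source used here gives the aligner, annotation, strand setting or handling of multi-mapping reads. Rows sharing an identifier (134 rows, 60 identifiers) were summed, and symbols were found for 22831 of 22969 identifiers. Controls 1 and 3 were summed as 1 sample.

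Tests used edgeR 4.0.16 in R 4.3.3 (genes kept by filterByExpr at a count of at least 10 and a total of at least 15, TMM scaling, a two-sided quasi-likelihood test of group without covariates, Benjamini-Hochberg over 12350 genes, threshold 0.05). SE was taken as the size of the log2 fold change over the root of the F statistic. CPM are counts over the library total. DESeq2 1.42.0, run on all genes with its own filter, and limma 3.58.1 (voom) were alternatives, as were other scalings, filters, left-out samples, sex, length and GC content. Length and GC content came from GENCODE M21. The scripts were tested on simulated data. The members and lists were chosen with earlier results of these data known. Named genes were all members, Rbfox2, the 3 genes with the smallest p per list, and the 3 genes closest in pattern to the member with the smallest p. Outside this rule, Trp53, Cdkn1c and Ly6a were chosen after their values were seen. Bysl, LTO1, Rcbtb2 and Lpar6 were named because they overlap members.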

Additional observations from a re-analysis of the deposited data

How the results depend on the processing

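No member passed the threshold under any of the alternatives run. The number of genes called over all genes was 0 under every edgeR and limma-voom setting and 477 of 14137 by DESeq2 (3.37%). Among these was 1 E2F target, called higher (1.67% of all genes were). Signs of 4 members turned. Ccnd2 turned to 0.021 with a transcript length correction. Cdkn1b turned to 0.23 without control 2. Cdkn2c turned to 0.26 without Rbfox2-deleted 1 and to 0.48 with sex as a covariate. Rb1 turned to 6.92 without controls 1 and 3. Rbfox2 itself turned to 1.90 without controls 1 and 3. Leaving out each sample in turn, with controls 1 and 3 also left out together as 1 sample, moved log2 fold changes between -1.10 and -0.50 for Ccnd1, -0.69 and -0.10 for Ccnd2, 0.64 and 1.05 for Ccnd3, -2.87 and -0.93 for Cdk6, -3.60 and -1.44 for Cdkn1a, -0.76 and 0.23 for Cdkn1b, -0.999 and 0.26 for Cdkn2c, -0.50 and -0.31 for Cdkn2d, and -1.60 and 6.92 for Rb1. The count of genes with an unadjusted p under 0.05 was 1221, against 2095 by DESeq2, 2145 with 6 separate libraries, 371 with sex as a covariate, 2924 without Rbfox2-deleted 1, 465 without control 2 and 559 without controls 1 and 3. A fit that leaves 1 control sample assumes that it varies like the others. Slbp passed with DESeq2 (log2 fold change 1.54). With upper quartile factors the split at an unadjusted p under 0.05 was 339 higher and 1087 lower, against 658 and 563 with TMM, and the median of the members was -0.75. Left-out samples moved Mki67 between -7.34 and -3.89, E2f2 between -5.82 and -1.82, Gsk3b between 1.04 and 1.85, and Fbxo31 between 0.97 and 1.79. The order of levels per kilobase changed for 2 members, Cdkn1a and Ccnd1, with merged exon lengths and again with 6 separate libraries. With a replicate block over 6 separate libraries Ccnd3 had a log2 fold change of 0.79 (edgeR adjusted p = 0.412), and 0.78 with a GC correction added. Under the block the median of the members was -0.98, and -1.02 with the GC correction, against -0.40 without it, and the median of all genes was -0.27. Deviations of same-numbered libraries correlated at -0.0448, -0.0127 and 0.0479, and 0 of 3 Rbfox2-deleted libraries correlated best with the control of the same number. Controls 1 and 3 were nearly identical, so these correlations could hardly tell number 1 from number 3. Whether the numbers are pairs is not settled, and the main fit did not take them as pairs. The number of members whose groups did not overlap was 4 (15.8% of all genes tested lay wholly higher and 15.4% wholly lower). With TMM factors it was 5 (14.9% of all genes tested higher and 17.2% lower). Over left-out samples it was between 4 and 6, and no share over all genes was taken there. Fewer samples make non-overlap more frequent for any gene, so that range is no result about the members. The causes were not tested.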
